A study of Mus musculus with 2 samples.

Results

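The 3 microRNAs (miRNAs) described here, mmu-miR-451, mmu-miR-144 and mmu-miR-486, are the classical miRNAs of red blood cells. They were chosen by name from the 558 known miRNAs that the study lists for mouse brain, of which 465 could be tied to a sequence in the deposited counts. Whole-brain small RNAs were read in 2 libraries, a young one from male C57BL/6J mice of 5 months and an old one from male C57BL/6J mice of 24 to 25 months. C57BL/6J is an inbred laboratory strain, the labels name no engineered allele and no treatment, and each library combined the cDNA of 2 mice. With 1 library per age there is no replicate error, so every interval and p-value below covers the counting of reads only, compares the 2 libraries rather than the ages, and treats PCR reads as if they were independent molecules.

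miR-144 and miR-451 are cut from a single primary transcript that the erythroid factor GATA1 switches on, and both are known for their part in red-cell maturation and in protecting red cells against oxidative stress. miR-486 lies in an intron of Ank1, the gene of ankyrin 1, a protein of the red-cell membrane skeleton, and is also known from muscle. Most miRNAs are released from their hairpin by Dicer. miR-451 is the exception: its hairpin is too short for Dicer, the slicer Argonaute 2 (Ago2) cuts the 3′ arm instead, and the 3′ end is then trimmed back through the loop by an exonuclease. Whether the brains were perfused to remove blood is not given in the sources used here.

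The sequence counted for each miRNA, called a tag, is the one whose reads equal the 2 counts listed for it. A single tag met this for miR-451 and miR-486, and for miR-144 the mature sequence of RefSeq decided among tags with the same counts. All tags that share the first 18 nucleotides (nt) were then added, which keeps every 3′ variant of a miRNA together. The tags are shown because their 5′ ends carry the seed (bases 2 to 8, in capitals), the stretch that pairs with target mRNAs, and miR-144* is the partner strand from the other arm of the miR-144 hairpin.
miR-451: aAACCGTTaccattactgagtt
miR-144: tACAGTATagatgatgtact
miR-486: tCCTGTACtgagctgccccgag
miR-144*: gGATATCAtcatatactgtaagt
The 4 seeds differ. Among 1679 mature mouse miRNAs of RefSeq, the seed of miR-451 was found in no other miRNA, and miR-144 shared bases 2 to 7 of its tag with miR-101a-3p. GC content also set them apart, at 36.4% for the tag of miR-451, 30.0% for miR-144 and 63.6% for miR-486.

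In mm9, the mature miR-451 lies at chr11:77886688-77886709 on the plus strand, within the hairpin gene Mir451 at chr11:77886672-77886743. miR-144 lies at chr11:77886549-77886568 and miR-144* at chr11:77886512-77886534, on the 3′ and 5′ arms of Mir144 (chr11:77886507-77886572, plus strand). The 2 hairpins are 99 nt apart, outside any protein-coding gene of the annotation, and the protein-coding gene Eral1 lies downstream at chr11:77886878-77893885 on the minus strand. The tag of miR-486 matched the genome at 2 places in the same short stretch, at chr8:24253059-24253080 on the plus strand and at chr8:24253099-24253120 on the minus strand. Both fall inside Mir486 (chr8:24253027-24253154), in the Ank1 intron from 24252193 to 24258752. The hairpin of the listed miRNA miR-3107 is the reverse strand, so its counted tag and that of miR-486 have the same sequence and the same count here. The hairpins of RefSeq are shown with the mature miRNAs in capitals, since the 3′ ends below are read against them.
Mir451a hairpin: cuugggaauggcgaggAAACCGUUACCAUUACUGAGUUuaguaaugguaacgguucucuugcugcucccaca
Mir144 hairpin, with miR-144* and then miR-144 in capitals: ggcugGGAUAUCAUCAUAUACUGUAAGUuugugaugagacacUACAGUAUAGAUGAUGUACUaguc
Folded by computer, the Mir451a hairpin is 72 nt long with a loop of 4 nt at positions 35 to 38 (free energy -43.3 kcal/mol). The mature miR-451 as counted spans positions 17 to 38, so its last 4 bases make up the loop and 17 of its other bases are paired. The Mir144 hairpin is 66 nt long (-28.6 kcal/mol) with a loop of 6 nt, and both of its mature strands lie outside the loop.

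All 3 miRNAs were well represented in whole brain and all were lower in the old library. The young library held 4523267 reads and the old library 6658732 reads, and values are given as reads per 1e6 of these (rpm). miR-451 was read 1155 times in the young and 901 times in the old library, that is 255 rpm (95% Poisson interval 241 to 271) against 135 rpm (127 to 144). miR-486 was the most abundant of the 3, with 1405 and 1084 reads, or 311 rpm (295 to 327) against 163 rpm (153 to 173). miR-144 was much scarcer than its neighbour miR-451, with 179 and 157 reads, or 39.6 rpm (34.0 to 45.8) against 23.6 rpm (20.03 to 27.6). In both libraries the order was miR-486, miR-451, miR-144, each apart from the next beyond its interval. Among 454 distinct 5′ starts of assigned miRNAs, miR-486 ranked 85 in the young and 91 in the old library, miR-451 ranked 98 and 103, and miR-144 ranked 183 and 181.

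**Figure D1:**
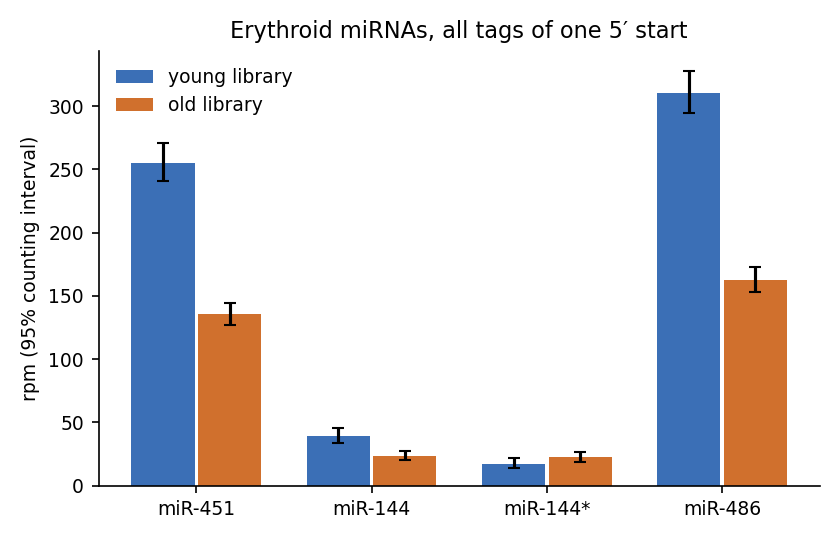
Reads per 1e6 reads (rpm) of the 4 strands in the young (blue) and old (orange) library, all tags of one 5′ start summed, with 95% Poisson intervals of counting. miR-451 stood at 255 and 135 rpm and miR-486 at 311 and 163 rpm, whereas miR-144* was the strand whose bar was higher in the old library.

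As log2 ratios of old over young, with the SE of counting, the differences were -0.92 ± 0.06 for miR-451, -0.93 ± 0.06 for miR-486 and -0.75 ± 0.16 for miR-144. The random sampling model of DEGseq gave a two-sided p of 1.68e-47 for miR-451, 5.01e-59 for miR-486 and 1.71e-06 for miR-144, and the exact binomial test gave 1.14e-46, 5.68e-58 and 2.68e-06. None of the 3 reached a 2-fold difference, at 0.530, 0.524 and 0.596 of the young level. Lower values were the rule in the old library. Of 335 known 5′ starts with at least 10 reads in a library, 275 were lower, with a median log2 ratio of -0.71 and a middle range of -1.09 to -0.19. At least 2-fold lower were 31.6% of them and at least 2-fold higher 2.09%, whereas a p under 0.05 with a lower value was given to 66.9% and with a higher value to 8.66%. The members' 3 calls by p therefore stand against a background in which about as large a difference is common, and relative to the median of all starts the log2 ratio was -0.21 for miR-451, -0.22 for miR-486 and -0.04 for miR-144.

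**Figure D2:**
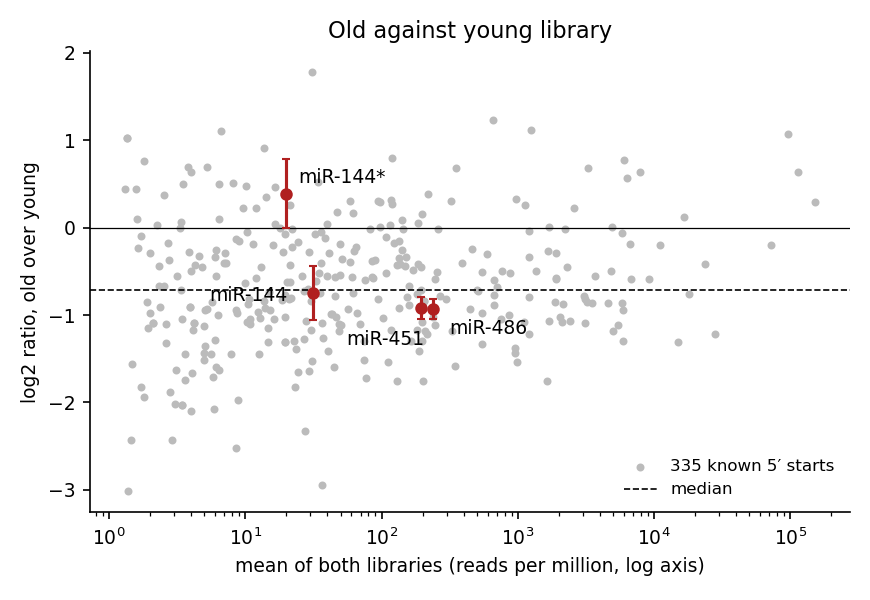
Log2 ratio of old over young against the mean level in rpm (log axis) for 335 known 5′ starts (grey), with the 4 erythroid strands in red and their 95% counting intervals. The dashed line is the median of -0.71, and miR-451, miR-144 and miR-486 lie near it while miR-144* lies above.

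The scaling moves with the let-7 family, the most abundant miRNAs here, whose 5′ starts held 34.1% of all young reads and 49.0% of all old reads. With TMM factors, which centre on the bulk of miRNAs, the log2 ratio was -0.19 for miR-451, -0.21 for miR-486 and -0.02 for miR-144, the last no longer past the test's threshold. The ratio also moved with base composition. Over the 335 starts the fitted log2 ratio fell by 0.33 for each 10 percentage points of GC, and at the GC content of each member the fit gave -0.31 for miR-451, 0.05 for miR-144 and -1.04 for miR-486. Relative to this fit, miR-451 was at -0.61, miR-144 at -0.80 and miR-486 at 0.11, which turns the sign for miR-486. The part of library composition in these differences was not tested. With bulk tissue, fewer red cells and less of a miRNA per cell cannot be told apart.

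The proportions of the 3 miRNAs to each other, which do not depend on the scaling, were close in both libraries. For each read of miR-486 there were 0.822 reads of miR-451 in the young (95% interval 0.761 to 0.889) and 0.831 in the old library (0.761 to 0.908). The log2 ratios of miR-451 and miR-486 differed by 0.02, with an interval of -0.15 to 0.19. Both ratios lie within the middle range of all starts, -1.09 to -0.19, and how often other pairs lie as close was not tested. Relative to the GC fit these 2 miRNAs were further apart, at -0.61 for miR-451 and 0.11 for miR-486. For each read of miR-451 there were 0.155 reads of miR-144 in the young (0.132 to 0.181) and 0.174 in the old library (0.147 to 0.206), a difference of 0.17 on the log2 scale with an interval of -0.16 to 0.50. Thus miR-451 was read 6.45 and 5.74 times as often as miR-144, its partner on the same transcript. These are proportions of reads and not of molecules.

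The 2 arms of the Mir144 hairpin differed in their ratios when all tags of each start were summed. The forms of miR-144* did not move together. Its counted tag of 23 nt was at -0.12 ± 0.34 (31 and 42 reads) and the 20-nt tag at -0.99 ± 0.46. The tags of 21, 22 and 24 nt were at 1.09 ± 0.44, 1.44 ± 0.61 and 1.90 ± 1.11. miR-144*, the 5′ strand, was read 78 times in the young and 150 times in the old library, or 17.2 rpm (13.6 to 21.5) against 22.5 rpm (19.1 to 26.4), a log2 ratio of 0.39 ± 0.20. The counting intervals of the 2 libraries overlapped for this strand, and its p was 0.0473 by the random sampling model, 0.0823 after Benjamini-Hochberg adjustment over all starts and 0.0588 by the exact binomial test. The difference between the arms was clearer than that of miR-144* alone: miR-144* made up 30.4% (Wilson interval 25.1 to 36.2) of the reads of both strands in the young and 48.9% (43.3 to 54.4) in the old library, and the log2 ratios of the arms differed by 1.13 (0.63 to 1.63). Over 54 miRNAs with both strands counted, this difference had a median of 0.01 and a middle range of -0.64 to 0.58, and 8 pairs, that of miR-144 included, were at 1.13 or above. The first 18 nt of the 2 strands had a GC content of 33.3% and 27.8%. miR-144* also began at more than 1 base, with 15 young and 14 old reads starting 2 nt upstream of the counted start, which are not in the sums above.

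From the other arm of Mir486, 2 tags that match the plus strand alone were found, of which the longer was the commoner. They are printed because their last bases, in lower case like the rest, differ between the 2 strands of this locus.
miR-486*, 21 nt: cggggcagctcagtacaggat
miR-486*, 22 nt: cggggcagctcagtacaggatg
The shorter tag had 10 young and 11 old reads and the longer 42 and 50. Together they gave 52 and 61 reads, a log2 ratio of -0.33 ± 0.27, or 3.70 reads in the young and 5.63 in the old library for each 100 reads of miR-486. No tag matched the partner arm of the minus strand alone, and 1 tag with 2 young reads matched both. The partner reads that could be assigned to a strand therefore all came from the plus strand, the sense strand of Ank1. For the miR-486 arm the strands could hardly be told apart. Perfect matches at its start numbered 790 young and 598 old reads on the plus strand and 792 and 598 on the minus strand. There the strands differ only past the counted tag, and only 2 young and 6 old reads ran further along either strand. Added bases are common on this arm (41.6% of its reads), so these few reads do not show which strand they came from.

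Where on the hairpin the reads began was sharply defined for miR-451 and its 5′ arm was nearly all that was read. Perfect matches to Mir451 numbered 1107 young and 851 old reads, and 1105 and 844 of these began at the counted first base. A single old read began on the 3′ arm, at position 77886715, past the loop, and no read matched the opposite strand. In Mir144, by contrast, the perfect matches divided between the arms: 94 young and 161 old reads began within 3 nt of the start of miR-144*, and 132 and 120 within 3 nt of the start of miR-144. For miR-486 the perfect matches on the plus strand were 790 and 598 reads at the counted start and 54 and 61 at the start of the partner strand. The Ago2 route is known to leave no partner strand.

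The 3′ ends of miR-451 were not unusually spread in length but differed from most starts in the shares called templated and added. Over both libraries, 55.6% of its reads were 23 nt long, 28.8% were 22 nt and 8.90% were 24 nt, with a mean of 22.8 nt, a standard deviation (SD) of 0.833 nt and a range of 19 to 26 nt. miR-486 had an SD of 0.946 nt, with 37.6% of the reads at 22 nt, 30.0% at 23 nt and 25.4% at 21 nt. miR-144 had an SD of 1.43 nt, with 38.1% of the reads at 21 nt and a separate group of 24.1% at 18 nt. The order of the 3 depends on which tags are counted: with tags of 20 to 25 nt alone the SD was 0.703 nt for miR-144, 0.739 nt for miR-451 and 0.910 nt for miR-486, and with templated tags alone it was 0.533 nt for miR-486, 0.813 nt for miR-451 and 1.30 nt for miR-144. Among 247 known 5′ starts with at least 100 reads the median SD was 0.924 nt, with a middle range of 0.712 to 1.07 nt. From the widest down, miR-144 ranked 16, miR-486 ranked 116 and miR-451 ranked 147, so with all tags counted the Dicer-independent miRNA was narrower than the median start. The starts next to it in SD were miR-99a, miR-200a, miR-136*, miR-10b and miR-124* on the narrower side and miR-873, let-7i, miR-148b, miR-140* and miR-219-5p on the wider side, from 0.816 to 0.862 nt.

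**Figure D3:**
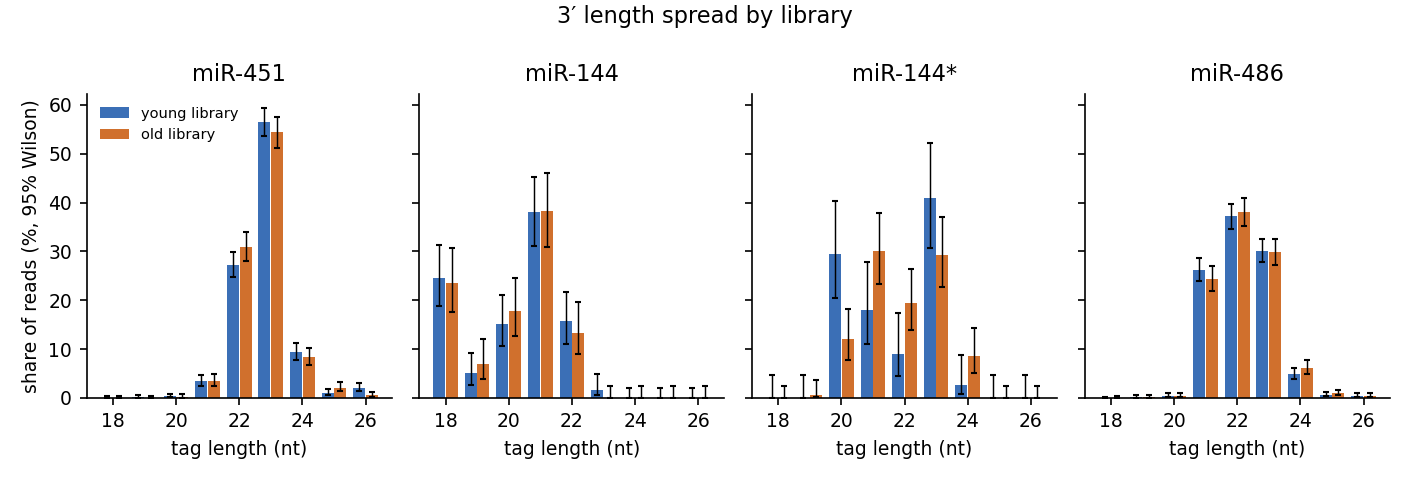
Share of reads (percent, with 95% Wilson intervals) at each tag length in nt for the 4 strands, in the young (blue) and old (orange) library. miR-451 has a single peak at 23 nt, miR-486 a plateau from 21 to 23 nt, and miR-144 a peak at 21 nt with a further one at 18 nt.

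The shape of the length distribution was alike in both libraries for the 3 miRNAs. For miR-451 the share at 23 nt was 56.5% (53.7 to 59.4) young and 54.4% (51.1 to 57.6) old, and the SD was 0.864 and 0.791 nt. Reads of 24 nt or longer made up 12.4% (10.6 to 14.4) young and 10.99% (9.11 to 13.2) old. In the pooled reads of all assigned starts the shares were 4.41% and 3.14%. The let-7 family and other abundant miRNAs weigh most in this pool, and the share was not ranked start by start. Only the 26-nt class of miR-451 moved beyond its intervals, from 23 young reads (1.99%, 1.33 to 2.97) to 5 old reads (0.555%, 0.237 to 1.29), and this class was chosen after its values were seen. For miR-486 the SD was 0.940 and 0.952 nt, and for miR-144 1.47 and 1.39 nt. For miR-144*, the share at 20 nt was 29.5% (20.5 to 40.4) young and 12% (7.73 to 18.2) old. The tags in the files end at 26 nt, so longer products of miR-451, among them the product of Ago2 cutting before it is trimmed, could not be seen.

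Most reads of miR-451 ran on along the hairpin past the counted tag. The counted tag of 22 nt was not its commonest one and held 27.2% of its reads. The templated forms of 22 nt and longer are shown, with the bases beyond the counted tag in capitals.
miR-451, 22 nt: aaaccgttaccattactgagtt
miR-451, 23 nt: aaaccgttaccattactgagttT
miR-451, 24 nt: aaaccgttaccattactgagttTA
miR-451, 25 nt: aaaccgttaccattactgagttTAG
miR-451, 26 nt: aaaccgttaccattactgagttTAGT
The 23-nt form had 633 young and 470 old reads and the 22-nt form 298 and 262. The 24-nt form had 101 and 65 reads, the 25-nt form 10 and 12, and the 26-nt form 20 and 5. The templated form of 21 nt, 1 base shorter than the counted tag, had 37 and 28. Every capital base in these 5 tags equals the base at that place in the hairpin, and the first of them is the first base past the loop. On the log2 scale the old over young ratio was -0.74 ± 0.12 for the 22-nt form, -0.99 ± 0.09 for the 23-nt form and -1.19 ± 0.23 for the 24-nt form, so the intervals of these 3 forms overlap. Of the perfectly matching reads, 69.1% (66.4 to 71.8) ended past the loop in the young and 65.4% (62.1 to 68.5) in the old library. Another 30.9% and 34.6% ended within the loop. None ended before the loop, but the counted tags share their first 18 nt, which reach up to the loop. Only a tag of 18 nt could have ended before it, so whether trimming goes further was not tested.

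Of all reads of miR-451, 64.0% (61.9 to 66.1) were longer than the counted tag and templated, which ranked 10 from the highest among the 247 starts (median 3.42%). Most of these were the templated 23-nt form, its commonest one, which held 53.6% of all its reads. This form is 1 base past the counted tag, so the share and its rank depend on the length that the study's list holds. Reads with 1 to 3 added bases that the hairpin does not hold made up 1.22% (0.825 to 1.79), the 3rd lowest share of the 247 (median 15.3%). Along the hairpin, bases 22 and 23 of miR-451 are T and base 24 is A. An added T or A at these places cannot be told from a templated one, so the share of additions can be too low. Reads with a mismatch followed by matching bases made up another 3.55%.

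By the same calls, miR-486 was close to the reverse. Its reads ran past the counted tag in 36.6% of cases, but only 0.321% (0.163 to 0.633) of its reads were longer and templated. Added bases were found on 41.6% (39.7 to 43.5) of its reads, rank 27 of the 247. The main forms are shown with the added bases in capitals.
miR-486, 22 nt: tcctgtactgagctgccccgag
miR-486, 21 nt: tcctgtactgagctgccccga
miR-486 with an added T: tcctgtactgagctgccccgagT
miR-486 with an added A: tcctgtactgagctgccccgagA
miR-486 with 2 added A: tcctgtactgagctgccccgagAA
The untailed forms of 22 and 21 nt had 434 and 349 young reads and 335 and 254 old reads. The form with an added T had 210 and 144 reads, that with an added A 167 and 130, and that with 2 added A 49 and 46. A single added T, which is U in the RNA, was found on 17.6% of all miR-486 reads and a single added A on 14.9%. The share with added bases was 40.6% (38.1 to 43.2) in the young and 42.8% (39.9 to 45.8) in the old library, with overlapping intervals. Untemplated tails of U and A are added to many miRNAs by terminal nucleotidyltransferases.

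miR-144, a Dicer product from the same transcript as miR-451, showed both kinds of end. Its counted tag held 15.2% of the reads, and the commonest forms were 1 base longer and 2 bases shorter.
miR-144, 21 nt: tacagtatagatgatgtactA
miR-144, 18 nt: tacagtatagatgatgta
miR-144 with an added T: tacagtatagatgatgtactT
The 21-nt form, whose last base is templated, had 52 young and 43 old reads, and the 18-nt form had 44 and 37. The form with T in place of that A had 16 and 17 reads. Over both libraries 28.3% (23.7 to 33.3) of the miR-144 reads were longer and templated, 25.9% (21.5 to 30.8) had 1 to 3 added bases and 20.8% had a single added T. No read of miR-144 was 24 nt or longer. The 18-nt form is as short as the shared start itself, so forms shorter than this were not counted. miR-144* had hardly any added bases, at 0.877% (0.241 to 3.14), and 58.8% of its reads were templated and shorter than the counted tag.

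**Figure D4:**
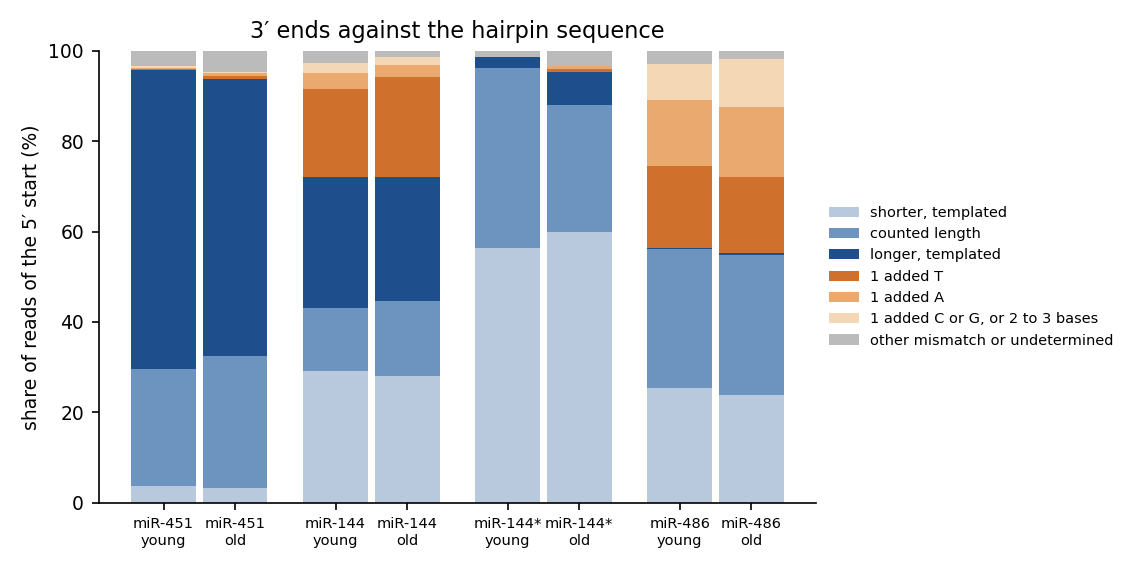
Share of reads (percent) by type of 3′ end for each strand and library, with templated ends in blue and added bases in orange. Templated reads longer than the counted tag dominate miR-451 at 66.1% young and 61.3% old, whereas added bases are common on miR-486 and miR-144.

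Set on the same axes, the miRNAs fell in different corners of the 247 starts. miR-451 combined a high share of ends called templated extension with a share called additions near 0, miR-486 the reverse, and miR-144 lay between them on both measures. Templated extension itself was not particular to miR-451, since 9 of the other starts had a higher share. For every start it also depends on the length of the counted tag.

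**Figure D5:**
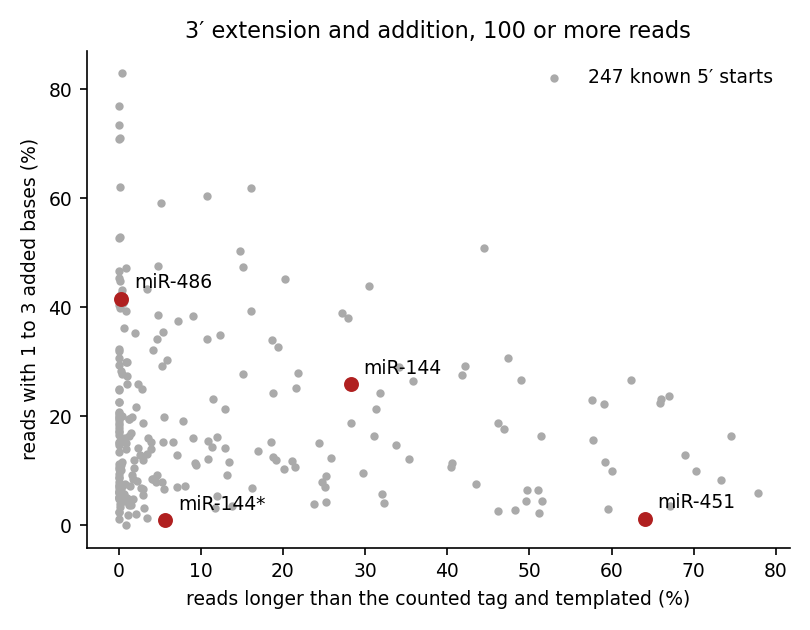
Share of reads longer than the counted tag and templated against the share with 1 to 3 added bases (both in percent of a start's reads) for 247 known 5′ starts with at least 100 reads over both libraries. miR-451 sits at 64.0% and 1.22%, miR-486 at 0.321% and 41.6%, and miR-144 at 28.3% and 25.9%.

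Other RNAs of red cells did not show a lower value in the old library. Fragments of the mRNAs of α-globin (Hba-a1 and Hba-a2) and β-globin (Hbb-b1 and Hbb-b2), the protein chains of haemoglobin, were found in 51 tags with 20 young and 43 old reads, that is 4.42 rpm (2.70 to 6.83) against 6.46 rpm (4.67 to 8.70), with overlapping intervals and a log2 ratio of 0.55 ± 0.39. α-Globin had 16 and 29 reads and β-globin 4 and 14. Alas2, the erythroid enzyme that begins haem synthesis, had 1 and 2 reads, and Slc4a1, the band 3 anion exchanger of the red-cell membrane, had 0, which allows up to 3 reads in each library. No globin tag was read more than 3 times. Few as they are, the globin reads differed from miR-451 in their ratio, by 1.46 (0.69 to 2.24). The interval of the globin log2 ratio, -0.22 to 1.31, leaves out the -0.92 of miR-451. It also leaves out the median of -0.71 over all known starts, so the gap is not particular to miR-451. Fragments of other mRNAs were not measured, so whether mRNA fragments differ from miRNAs in general was not tested.

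miRNAs known for their part in red-cell differentiation, though expressed in many tissues, did not move together. All 8 on the list had at least 10 reads, 5 were lower and 3 higher in the old library, where 82.1% of all tested starts were lower, and the median log2 ratio was -0.41 against -0.71 over all starts. By the random sampling model 5 of the lower and 2 of the higher ones had a p under 0.05, beside 66.9% of all starts in the lower and 8.66% in the higher direction. miR-221 and miR-222, which restrain the stem-cell factor receptor Kit, were at -1.09 ± 0.02 and -0.29 ± 0.02. miR-92a, of the miR-17-92 cluster, was at -1.04 ± 0.23, the hypoxia-induced miR-210 at -0.57 ± 0.13 and miR-22 at -0.52 ± 0.03. In the other direction, miR-16 was at 0.68 ± 0.05 and its cluster partner miR-15a at 0.32 ± 0.08, while miR-24 was at 0.00 ± 0.02. With TMM factors 2 of the 8 were lower and 6 higher. Relative to the GC fit over the 335 starts, miR-16 was at 0.81. miR-16 is itself abundant in red cells and was as frequent as miR-451 in the young library, at 269 rpm, and stood at 433 rpm in the old one.

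Markers of the other cells in the sample were measured beside the erythroid miRNAs. The brain miRNAs miR-124, miR-9 and miR-128 ranged from 2989 to 39418 rpm over both libraries and were lower in the old one at -1.21, -0.56 and -0.76, though miR-9 turned higher with TMM factors, which add 0.72 to every log2 ratio. Of 5 miRNAs of other blood cells, miR-142-5p, a marker of leukocytes and microglia, was the one with at least 10 reads. It stood at 28.1 rpm (23.4 to 33.4) young and 40.2 rpm (35.6 to 45.4) old, a log2 ratio of 0.52 ± 0.16, and differed from miR-451 in its ratio by 1.44 (1.11 to 1.77). The myeloid miR-223 had 4 and 5 reads and miR-155, a miRNA of activated immune cells, 2 and 0. Relative to the GC fit, miR-142-5p was at 0.65, against -0.61 for miR-451. The endothelial miR-126-5p was at 52.8 and 46.6 rpm, a log2 ratio of -0.18 ± 0.12 with overlapping intervals, and turned higher with TMM factors. miR-142-3p, miR-150 and miR-126-3p could not be tied to a tag. The part of blood left in the vessels in these values was not tested.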

How the data were processed

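The authors removed the 3′ adapter from reads of 36 nt, aligned them with SOAP to mm9, merged reads of identical sequence and deposited the raw read counts of each, without normalization. For each mouse, RNA of 18 to 30 nt had been cut from a gel. Tags in the files were 17 to 26 nt long.

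From these counts the following was computed. A known miRNA was tied to the tag whose 2 counts equal those of the study's list, or, where several did, to the mature sequence of RefSeq (GRCm38.p6), giving 465 miRNAs, 199 of them through a single tag, with 454 distinct 5′ starts. All tags with the same first 18 nt were summed. Perfect matches were sought in NCBIM37 (mm9) and genes taken from GENCODE vM1. A 3′ end was called templated if it continued the genome sequence of the hairpin, and an addition if its last 1 to 3 bases did not. A tail of 2 or more bases that matched the hairpin again after its first base was called a mismatch and left out of the additions. Ratios were scaled to the total reads (old over young 1.47), a count of 0 set to 0.5, and a start was tested across libraries with at least 10 reads and measured for length with at least 100. P-values came from the formula of DEGseq's random sampling model, two-sided, and from an exact binomial test. A quasi-likelihood fit in edgeR needs replicates and could not be made with 1 library for each age. Intervals are 95% Poisson or Wilson intervals and cover counting error only.

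The members and the lists were chosen with earlier results of these data known. Named miRNAs are the 3 members, their partner strands, the members of the marker lists, and the 5 starts nearest to miR-451 in SD on either side. In counts simulated for 335 starts, 200 of them changed 2-fold, the model gave a p under 0.05 to 90.5% of the changed and 2.96% of the unchanged starts. These counts were Poisson draws scaled to the total reads, with changes balanced up and down. They leave out variation between mice, the let-7 shift and the trend with GC, so they give no rate of false calls for the real libraries. The alternatives were other tag definitions, scalings, read minimums, 1 read added, a GC fit and restrictions on tags. Hairpins were folded with RNAfold 2.7.2 at 37 °C. Scaling factors came from edgeR 4.0.16 and DESeq2 1.42.0 in R 4.3.3, and the other steps ran in Python 3.11.15 (scipy 1.17.1, numpy 2.4.6). miR-486* and miR-3107* were followed through the hairpin sequence, since the listed counts did not tie them to a tag.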

Additional observations from a re-analysis of the deposited data

How the results depend on the processing

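Of 30 recomputed log2 ratios of the 3 miRNAs, 26 kept their direction and their side of the threshold. miR-451 stayed between -0.97 and -0.19 under its 10 alternatives. miR-144 lost the threshold with the single tag (-0.50, 25 and 26 reads), under TMM scaling (-0.022) and under the size factors of DESeq2 (-0.038). miR-486 turned to 0.11 as a residual of the GC fit. The count of starts at least 2-fold lower, 106, became 20 with TMM factors, 22 with size factors and 46 with the let-7 starts left out of the total, and the count of those 2-fold higher, 7, became 38, 37 and 18, and 19 with no minimum of reads. These scalings of the counts were chosen after seeing the data. The share of lower ones among 2-fold differences was thereby 93.8% with total reads, 34.5% with TMM factors, 37.3% with size factors and 71.9% without let-7. Of 24 recomputed length measures 17 moved by less than counting error. Restricted to 20 to 25 nt, the SD was 0.739 nt for miR-451, 0.703 nt for miR-144 (with 54.5% of reads at the commonest length) and 0.910 nt for miR-486. Restricted to templated tags, it was 1.30 nt for miR-144 and 0.533 nt for miR-486 (55.2% at the commonest length). The order of the 3 miRNAs in SD thus turned under both restrictions. The restriction itself removes the 18-nt form of miR-144 and the tailed forms of miR-486. The log2 ratio of globin reads stayed within counting error. No paired analysis was possible because each age has 1 library. Depth limits the partner strands, the scarce marker miRNAs and the globin fragments, which had few reads.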
